A study of Homo sapiens with 6 samples.

Results

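The clusters described here are the sites of RNA in a Total RNA library whose repeat filter named them as LTR elements or DNA transposons. How the label was assigned, and whether it took strand into account, is not given in the sources used here, so a cluster may be antisense to its element. The clusters were taken by that label alone, which gave 5195 of the 200602 clusters of the library, 2169 of class LTR and 3026 of class DNA. A cluster is a stretch of overlapping reads with at least 5 reads and at least 1 position where T was read as C. All libraries came from HEK293, a cell line of human embryonic kidney origin, fed with 4-thiouridine (4SU) and irradiated at 365 nm, and the immunoprecipitated proteins were HuR or GFP, stably expressed from a doxycycline-inducible transgene and pulled down with the FLAG M2 antibody. In PAR-CLIP a 4SU crosslinked to protein is copied as C, but 4SU that was not crosslinked can also be read as C, so a conversion in Total does not by itself mark a crosslink. Total was lysate RNA prepared with RNase T1, proteinase K and rRNA depletion, with no immunoprecipitation. The groups it was set against were the HuR immunoprecipitate, with 2 replicates, and 3 gel slices at about 20, 35 and 45 kDa from the GFP immunoprecipitate (G20, G35 and G45), each a single library. Which transgenic line gave the Total lysate, and whether the lines were clones, is not given in the sources used here. In bulk RNA, more cells with a transcript and more transcript per cell cannot be told apart.

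LTR elements are the remains of endogenous retroviruses, which spread by copying an RNA into DNA, and their long terminal repeats can hold promoters and polyadenylation signals. DNA transposons moved by cutting out and reinserting DNA with a transposase, and those in the human genome are old fossils, mostly of the hAT and Tc1/mariner kinds. Most copies of either kind are no longer transcribed from their own promoters, and many lie in introns, 3′UTRs and long noncoding RNAs and are carried along in those transcripts. HuR, encoded by ELAVL1, binds uridine-rich stretches in introns and 3′UTRs.

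The sequences below show the kinds of cluster on which the results turn. They are read 5′ to 3′ from the deposited tables, positions are on hg19, and capitals mark T, the base whose conversion is counted. A run of at most 30 bases is given, which is the start of the cluster where the cluster is longer. The clusters with most Total reads included a PID1 intron, a Y_RNA exon, an SLC13A3 intron and an ERC1 intron.
PID1 intron, LTR, chr2:230045498-230045527, minus strand: cgggTTcagaTccccgaaTccggagTggcg
Y_RNA, DNA (Tigger1), chr9:72926530-72926559, minus strand: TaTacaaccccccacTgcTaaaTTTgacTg
SLC13A3 intron, LTR, chr20:45199575-45199591, minus strand: TaaaTTacccacacccg
ERC1 intron, DNA (Kanga2_a), chr12:1310570-1310599, plus strand: TaTTTcTaaaTTaaTaTTaTTTTgTcaTaT
The clusters with most reads in HuR or in the slices were mostly short and outside genes or on the strand opposite to a gene.
LTR33A, chr4:105350795-105350811, minus strand: ccTgTTaggcTccacca
LTR1D, chr21:26046974-26046988, plus strand: gTgcTaacgTcTgTc
CAST intron, LTR (MLT2B4), chr5:95934533-95934548, plus strand: TcTagTacgagaggac
MER102b, DNA, chr1:90775659-90775677, minus strand: ggggTgcaagcTcTTgaTT
MamRep137, DNA, chr13:27062865-27062881, minus strand: cacTggTgTgcgagaTg
Clusters with at least 5 reads in each HuR replicate and none in a slice are shown for their content of T.
EXOSC6 3′UTR, LTR (LOR1-int), chr16:70283932-70283950, minus strand: aTTcaTTccaTTcaTcTag
PUM3 intron, LTR (LTR37B), chr9:2794741-2794761, minus strand: TTTTaaTaTTcTaacaTcacg
ETNK1 intron, DNA (MER102c), chr12:22823225-22823249, plus strand: TcaTaTaTccaTTTTTaacTccacg
HELLS 3′UTR, DNA (Charlie1), chr10:96372207-96372227, plus strand: ccTTTTccTcaTaTTcacaag

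The libraries held between 6187300 reads (G35) and 38644636 reads (G20), with 35924998 in Total, 9525265 in HuR replicate 1 and 32111810 in HuR replicate 2. Values scaled to a library of 1000000 reads (RPM) have a floor, the share of 3 reads, of 0.0776 in G20, 0.485 in G35, 0.398 in G45, 0.315 in HuR replicate 1 and 0.0934 in HuR replicate 2. All 8 genes listed as markers of HEK293 cells had exonic reads in Total, from 4 reads for NEFM to 2352 for VIM, and they summed to 115 RPM. Of the markers of blood, liver, connective tissue and vessel cells, 6 of 9 had reads, at most 41, and they summed to 3.06 RPM, with CD3E, APOA1 and HBB at 0. Shares are given with 95% Wilson intervals, which cover counting error only, because reads carried no molecular identifiers and Total is 1 library. Differences between classes within Total were therefore described by these intervals and not tested.

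LTR clusters were few and shallow, with a small number of deep exceptions. Together they held 41362 reads, 0.173% of the reads in clusters, with a median of 8 reads and a range of 5 to 5806. In 1360 of them (62.7%) there were fewer than 10 reads, and 27 had 100 or more. A single cluster held 14% of the reads of the class and the 10 deepest held 15031 reads (36.3%). DNA transposon clusters were as shallow, with 36172 reads, a median of 7 and a range of 5 to 2097, but their reads were less concentrated, at 5.80% in the deepest cluster and 3619 reads in the 10 deepest. The median length was 21 bases in both classes, as in clusters with no repeat class, whose median depth was 9 reads. The sequence occurred once on the chromosomes for 99.3% of the 2119 LTR clusters and 98.9% of the 3005 DNA clusters of 16 or more bases. The share was 98.9% over all clusters. Only uniquely mapping reads had been kept, so this largely follows from that filter. Reads that fit several copies of an element are not counted here. The RNase T1 cut after G was visible at the edges, since 94.4% of LTR and 96.6% of DNA clusters ended in G, and a G preceded 81.6% and 85.1%.

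Both classes lay mainly in introns, with LTR clusters more often outside genes. Introns on the same strand held 1107 LTR clusters (51.0%, 48.9 to 53.1) and 2080 DNA clusters (68.7%, 67.1 to 70.4), compared to 44.0% of all clusters. The 3′UTR held 12.4% of LTR and 14% of DNA clusters, below the 22.1% of all clusters. Coding sequence held 31 LTR clusters (1.43%) and 29 DNA clusters (0.958%), compared to 19.8% of all clusters. Noncoding exons held 9.08% of LTR clusters (7.94 to 10.4) and 5.39% of DNA clusters (4.64 to 6.25). Outside any annotated gene lay 410 LTR clusters (18.9%, 17.3 to 20.6) and 217 DNA clusters (7.17%, 6.31 to 8.15), compared to 4.48% of all clusters. On the strand opposite to a gene lay 6.78% of LTR and 2.91% of DNA clusters, compared to 2.73% overall. The intervals of the 2 classes did not overlap for introns, noncoding exons, the opposite strand or regions outside genes. With clusters of 10 or more reads alone, the share in introns was 41.8% for LTR and 57.2% for DNA.

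**Figure D1:**
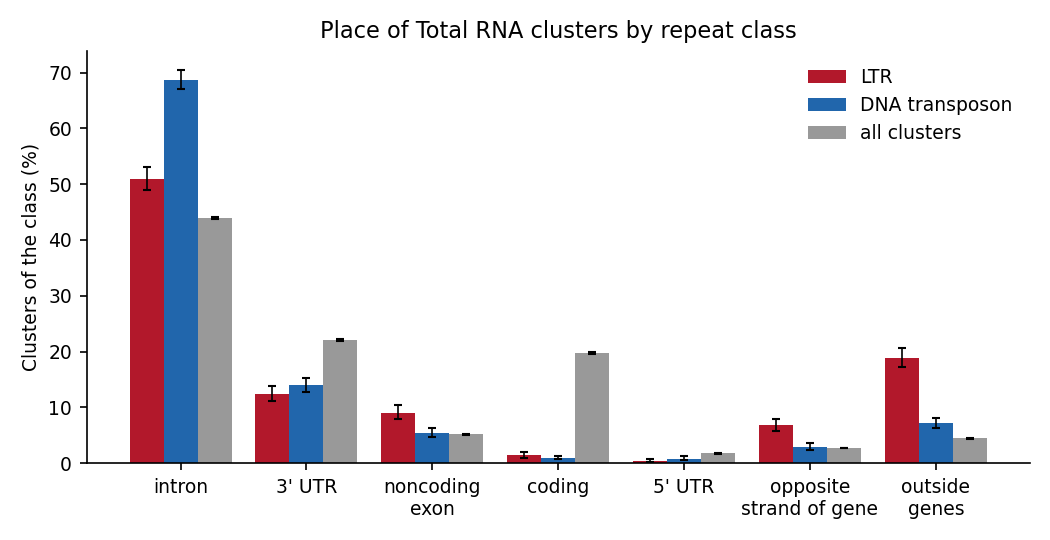
Share of clusters (%) in each place of the annotation for LTR, DNA transposon and all clusters of Total, with 95% Wilson intervals as error bars. Introns held 51.0% of LTR and 68.7% of DNA clusters, and regions outside genes held 18.9% and 7.17%.

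Host genes differed in kind between the classes. A protein-coding gene on the same strand held 59.2% of LTR clusters (57.1 to 61.2) and 83.5% of DNA clusters (82.2 to 84.8), compared to 88.1% of all clusters. A long noncoding RNA (lncRNA) gene held 14.8% of LTR clusters (13.4 to 16.4), 6.18% of DNA clusters (5.38 to 7.09) and 4.03% of all clusters. LTR clusters were spread over 942 host genes and DNA clusters over 1696. There were 279 genes that held clusters of both classes, which is 29.6% of the LTR hosts and 16.5% of the DNA hosts. Most hosts held 1 cluster, 663 for LTR and 1145 for DNA, while 12 genes held 10 or more LTR clusters and 2 genes held 10 or more DNA clusters. Clusters of 1 class lying within 1000 bp of each other on the same strand made up 34.2% of LTR clusters, with a longest run of 24, and 28.9% of DNA clusters, with a longest run of 8. Clusters of a run can share an element and a transcript, so they are not independent. Genes with a symbol of the form ZNF and a number, a naming pattern looked at after its values were seen, held 9.68% of LTR clusters (8.51 to 11), 2.45% of DNA clusters (1.95 to 3.06) and 3.08% of all clusters. Chromosome 19, which carries many such zinc finger genes, held 11.4% of LTR, 4.30% of DNA and 5.85% of all clusters.

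Among LTR hosts, NCR3LG1, which encodes a ligand of a natural killer cell receptor, held the most clusters. It had 31 LTR clusters of 34 clusters in all (91.2%), 26 of them in the 3′UTR and 3 in coding sequence, with 846 reads, the deepest having 254. The HuR and slice tables named HUERS-P3-int, the internal part of a retrovirus, at 21 of its clusters. Of the 31 clusters, 8 had a site in HuR replicate 1 (13 reads), 15 in HuR replicate 2 (120 reads) and 8 in any slice. PUM3, a Pumilio-related RNA-binding protein, held 22 LTR clusters, all of them intronic, out of 117, and they had 17 reads in HuR replicate 1 and 246 in HuR replicate 2. The zinc finger gene ZNF107 held 20 LTR clusters, 13 intronic and 7 in noncoding exons, and ZNF718 held 15, of which 14 were intronic. LINC00665, a lncRNA, held 16 LTR clusters of 26 in all (61.5%), 14 of them in its exons, with 249 reads, and 6 had a site in a slice. TRMT11, a subunit of a tRNA methyltransferase, held 14 LTR clusters and RAD18, a ubiquitin ligase of post-replication repair, held 12, next to 6 and 5 DNA clusters. The gene ENSG00000283515, on chromosome 19, held 13, and HERVK3-int was named at 9 of them.

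DNA transposon clusters were a small part of the clusters of most of their main hosts. POLA1, the catalytic subunit of DNA polymerase alpha, held 13 of class DNA among 254 clusters (5.12%), and EIF4G3, a scaffold of translation initiation, held 10 among 253 (3.95%), all in introns. ERC1, a scaffold protein of vesicle transport, held 9 intronic DNA clusters between chr12:1310433 and chr12:1317640, with 320 reads in Total and with 127 and 1701 in the 2 HuR replicates, each HuR site counted once. All 9 had a site in both HuR replicates, and 6 had a site in a slice. MRPL42, a protein of the mitochondrial ribosome, held 9 in its 3′UTR, with 24 reads in HuR replicate 1 and 369 in HuR replicate 2. ZFR, an RNA-binding zinc finger protein, held 8 intronic ones, all with a site in HuR replicate 1 and none with a site in a slice. CNOT7, a deadenylase, held 8, of which 5 lay in the 3′UTR, and SFMBT2, a Polycomb group protein, held 8 in introns. FTX, a lncRNA of the X-inactivation centre, held 8 DNA and 3 LTR clusters. The DNA clusters of FTX had 20 reads in HuR replicate 1 and 183 in HuR replicate 2, whereas its LTR clusters had 0 in both.

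Genes that themselves descend from mobile elements were a small part of the hosts. Of 34 genes derived from retroviruses or LTR elements, 18 held any cluster, 7 held LTR clusters (25 in all) and 0 held DNA clusters. Over all 14312 genes with a cluster, 6.58% held an LTR cluster and 11.9% a DNA cluster. The LTR clusters lay in the coding sequence or 5′UTR of PNMA1 (5 clusters, 57 reads), PNMA2 (5 clusters, 49 reads) and MOAP1 (4 clusters, 124 reads), which belong to the Gag-derived PNMA family. ERV3-1, an envelope-derived gene, had 3 coding clusters with 39 reads, and ERVK13-1 had 6 in its introns and noncoding exons with 71 reads. Of 47 genes derived from DNA transposons, 44 were in the annotation, 31 held a cluster, 11 held DNA clusters (29 in all) and 1 held an LTR cluster. ZBED5 had 7 DNA clusters in coding sequence (96 reads), of which 1 had a site in HuR replicate 2 and 4 had a site in a slice. POGZ had 6 in introns (53 reads), JRK had 2 in coding sequence (48 reads), and TIGD1 had 2 with 33 reads. Among 34 genes that silence mobile elements, 31 held a cluster, 8 held LTR clusters (19) and 9 held DNA clusters (16). PPHLN1 and TASOR encode subunits of the HUSH silencing complex. PPHLN1 held 9 LTR clusters (150 reads) of its 59, and TASOR held 1 LTR and 2 DNA clusters of 63. ATRX, a chromatin remodeller, held 5 DNA clusters with 74 reads in Total and 81 in HuR replicate 2. Of 23 lncRNAs known for mobile element sequence, 12 held a cluster, 3 held LTR clusters (12) and 6 held DNA clusters (17). TUG1 accounted for 8 of the LTR clusters, with 117 reads in Total, 7 in HuR replicate 1 and 68 in HuR replicate 2.

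Names of elements could be given where a HuR or slice site overlapped a cluster, since those tables carry the name from RepeatMasker. This named 1132 LTR clusters (52.2%) with 295 element names and 1835 DNA clusters (60.6%) with 162. Internal parts of retroviruses made up 26.2% of the named LTR clusters, elements named LTR 25.3%, MLT elements of the MaLR group 23.7%, MER elements 17.6% and the related MST and THE1 elements 6.01%. MLT1D had the most clusters, 33, in 20 host genes, while of the 25 of HUERS-P3-int 21 lay in NCR3LG1, the single host gene of that element. Internal parts lay in introns in 40.4% of cases and outside genes or on the opposite strand in 27.9%. For MST and THE1 elements these shares were 58.8% and 14.7%. Among named DNA clusters, elements named MER made up 48.6%, Tigger elements, of the Tc1/mariner kind, 23.5%, and Charlie elements, of the hAT kind, 18.7%. MER5A had 86 clusters, spread over 72 host genes, Tigger1 had 76 over 52 and MER5B had 75 over 59.

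Windows of 21 bases centred on each cluster's mode, the point of highest signal, held little G on average. In LTR clusters A made up 30.6%, C 28.1%, G 13.3% and T 27.9%, and in DNA clusters A made up 34.4%, C 22.8%, G 12.7% and T 30.1%. Over all clusters the values were 31.0%, 25.4%, 13.9% and 29.7%. Within the windows G was highest at the mode itself, at 27.7% in LTR and 28.0% in DNA clusters. T was lowest 1 base before the mode, at 21.4% and 24.6%. Counted on the letters of the window, on the strand of the cluster and with overlapping matches counted once per window, TTTTT was in 40 LTR windows (1.84%, 1.36 to 2.50), 133 DNA windows (4.40%, 3.72 to 5.19) and 4.64% of all windows. The motif ATTTA, the core of AU-rich elements, was in 2.90% of LTR windows (2.28 to 3.70), 6.08% of DNA windows (5.28 to 6.99) and 5.30% of all. TGTA, the start of the Pumilio site, was in 4.38%, 5.55% and 4.51%, and GGGG in 2.95%, 2.28% and 2.69%. For TTTTT and ATTTA the intervals of the LTR windows lay below those of the DNA windows.

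Clusters that also had a HuR site held more T. The 429 LTR clusters with a site in both HuR replicates had 32.1% T, compared to 25.7% in the 1118 with a site in neither. The 757 DNA clusters with a site in both had 34.6% T, compared to 27.0% in the 1216 with a site in neither. TTTTT was in 5.13% of the former LTR windows (3.41 to 7.64) and 0.716% of the latter (0.363 to 1.41). In DNA windows it was in 9.11% (7.27 to 11.4) and 1.73% (1.13 to 2.63). Over all clusters the T shares were 35.6% and 25.3%, and TTTTT was in 9.46% and 1.45%. Clusters with a site in both replicates were slightly deeper in Total, with a median of 9 reads in each class compared to 7, and the part of depth in the difference was not tested.

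**Figure D2:**
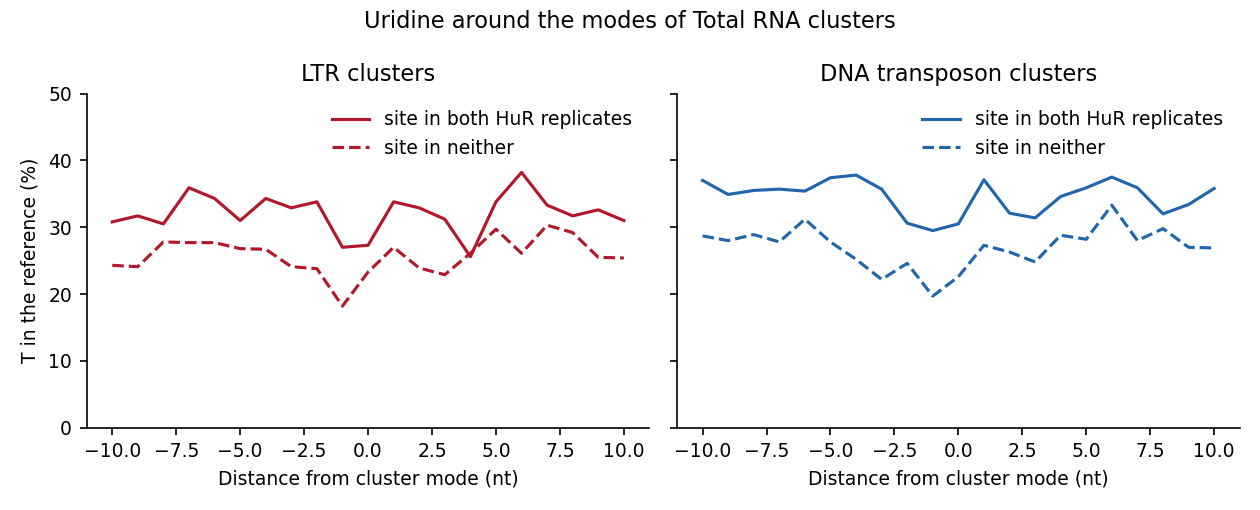
Share of T in the reference (%) by distance in nt from the cluster mode, for LTR (left) and DNA (right) clusters with a site in both HuR replicates (solid) or in neither (dashed). Averaged over the window the solid lines lie at 32.1% and 34.6% T and the dashed lines at 25.7% and 27.0%, and the LTR lines meet 4 nt after the mode.

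Conversions were present in every cluster by definition, and their number per read was spread widely. LTR clusters had 11553 conversion events, 27.9 per 100 reads, and DNA clusters had 12222, 33.8 per 100 reads, compared to 23.4 in clusters with no repeat class, 40.1 in LINE and 38.8 in SINE clusters and 50.9 over all clusters. The median over clusters was 25 for LTR, 28 for DNA, 23.8 for no repeat class and 25 over all clusters. The ratios over all clusters rest on few sites, since the 10 deepest of all clusters held 64.8% of the reads. Per T covered by a read, 5.63% in LTR and 5.02% in DNA clusters were read as C, compared to 9.81% over all clusters and 4.39% with no repeat class. Conversions at 2 or more positions were found in 45.1% of LTR clusters (43.0 to 47.2) and 50.4% of DNA clusters (48.6 to 52.2), compared to 54.6% with no repeat class. The order of the classes rested on few clusters. Without the 10 deepest clusters of each class, LTR had 35.4 events per 100 reads and DNA 30.6, which turned the order round.

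In some clusters conversion events were nearly as many as reads, although a read can carry more than 1 event. Among clusters of 20 or more reads, events numbered at least 90% of reads in 39 of 252 LTR clusters (15.5%, 11.5 to 20.5) and 13 of 305 DNA clusters (4.26%, 2.51 to 7.15). The share was 9.60% in LINE, 11.9% in SINE and 2.34% in clusters with no repeat class. The median length of these clusters was 18 bases in both classes, as over all clusters of this kind. Outside genes or on the opposite strand lay 30 of the 39 LTR and 10 of the 13 DNA clusters. The counts were 57 of 74 in LINE, 30 of 60 in SINE and 649 of 1143 over all clusters. By place, LTR clusters outside genes had 45.5 events per 100 reads, intronic ones 29.6 and those in 3′UTRs 23.4, while those on the opposite strand, which include the deepest cluster, had 15.5. For DNA clusters these values were 42.3, 30.5, 24.9 and 56.6, and the value was 58.4 in noncoding exons, where the Y_RNA cluster lies. The medians over clusters outside genes, in introns and in 3′UTRs were 33.3, 26.7 and 22.2 for LTR and 35.7, 28.6 and 23.8 for DNA, and on the opposite strand they were 40 and 33.3.

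**Figure D3:**
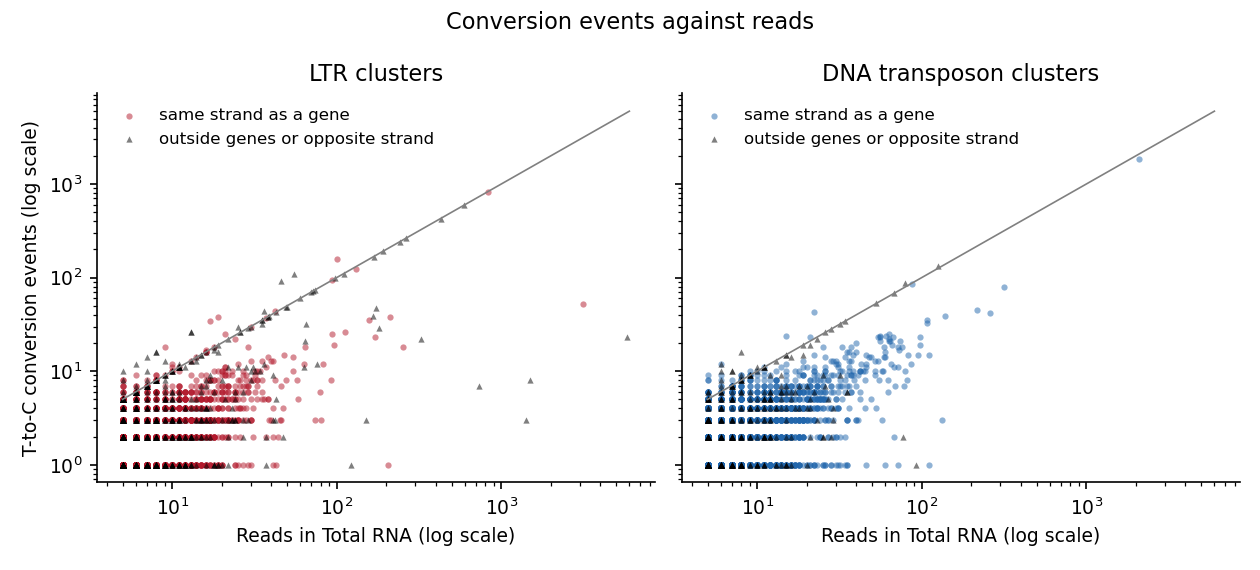
T-to-C conversion events against reads of each LTR (left) and DNA (right) cluster in Total, both axes on a log scale, with clusters on the strand of a gene as circles, others as triangles, and a grey line where events equal reads. Among LTR clusters 1 with 826 reads and 818 events lies near the line and 1 with 5806 reads and 23 events far below it, and several deep DNA clusters lie between, such as 1 with 317 reads and 80 events.

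The deepest LTR clusters had few events for their reads. The deepest, chr1:91852829-91852925 on the plus strand, had 5806 reads and 23 events. The PID1 intron cluster had 3151 reads and 52 events. Next were a neighbour of the deepest cluster, chr1:91852927-91853040, with 1493 reads and 8 events, and an LTR12C cluster, chr7:107528293-107528310, with 1409 reads and 3 events. The sequences of these 4 clusters also lie on GL000220.1, an unplaced contig of GRCh37 known to carry a ribosomal DNA repeat, as they are or, for PID1, with 1 T read as C. The pair on chromosome 1 matched the minus strand of the contig, and the other 2 matched its plus strand. The deposited tables hold sites of 25 chromosomes and none of the 59 unplaced contigs. In all, 9 LTR clusters with 12152 reads (29.4% of the reads of the class) and 2 DNA clusters with 133 reads (0.368%) matched that contig, compared to 12.2% of the reads over all clusters. Without them LTR clusters had 38.4 events per 100 reads and DNA clusters 33.5. The contig was singled out after its values were seen. Whether these reads came from ribosomal RNA was not tested.

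Clusters with about as many events as reads were also among the 10 deepest. The SLC13A3 intron cluster, in a gene for a sodium-coupled dicarboxylate carrier, had 826 reads with 818 events and no reads in any of the other 5 libraries. LTR33, chr3:30554964-30554979, had 594 reads with 596 events, and reads in every library, from 42 in G20 to 159 in G35. LTR33A had 429 reads with 427 events, and MLT1G3, chr6:131945459-131945474, had 263 of each. By contrast the cluster at chr18:3271613-3271630 had 733 reads with 7 events and no site in any other library, and LTR48B at chr6:27106370-27106387 had 327 reads with 22.

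Among the 10 deepest DNA clusters, 1 lay outside genes and the others in transcripts. The deepest was the Y_RNA cluster, in a copy of the small noncoding RNAs bound by Ro60, with 2097 reads and 1851 events. It had 135 reads in G20, 2 in G35, 12 in G45, 2 in HuR replicate 1 and 0 in HuR replicate 2. TOMM20, the mitochondrial import receptor, had 3 of the 10 deepest clusters, of Tigger10 in its 3′UTR, with 317, 261 and 218 reads and 80, 42 and 45 events. The cluster with 218 reads had 3, 0 and 0 reads in G20, G35 and G45, 15 in HuR replicate 1 and 415 in HuR replicate 2. The ERC1 intron cluster had 139 reads with conversions at 17 positions, 44 reads in HuR replicate 1 and 845 in HuR replicate 2, and 5, 0 and 0 in the slices. Clusters in the 3′UTRs of ZNF8 (133 reads) and VMA21 (108 reads, an assembly factor of the proton pump V-ATPase), and in the DHX9 intron (110 reads, an RNA helicase), had 57, 40 and 12 reads in HuR replicate 2 but 10, 3 and 0 in HuR replicate 1, and of the slices G20 had 6 reads at VMA21 and the others 0. A noncoding exon of ENSG00000260196 (MER6A) had 110 reads in Total, 5 and 20 in the HuR replicates and 0 in the slices. The cluster outside genes, MER45C on chromosome 16, had 126 reads with 134 events and is 1 of the 2 DNA clusters that matched GL000220.1.

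Same-strand sites, those that shared at least 1 bp with a cluster, were more common in HuR than in the slices for both classes. In HuR replicate 1, 678 LTR clusters (31.3%, 29.3 to 33.2) and 1108 DNA clusters (36.6%, 34.9 to 38.3) had a site, compared to 37.9% of all clusters. In HuR replicate 2 the counts were 802 (37%, 35.0 to 39.0) and 1459 (48.2%), compared to 49.4%. The mean of the replicates was 34.1% ± 4.04 (SD, n = 2) for LTR and 42.4% ± 8.20 (SD, n = 2) for DNA. Both replicates had a site at 429 LTR (19.8%) and 757 DNA clusters (25%), compared to 28.0% of all. DNA clusters were above LTR clusters in each replicate, with intervals that did not overlap, although the range of the 2 replicates overlapped between the classes.

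In the slices the order of the classes was the other way round. G20 had a site at 239 LTR clusters (11%, 9.77 to 12.4) and 225 DNA clusters (7.44%, 6.55 to 8.43), compared to 17.8% of all clusters. G35 had a site at 96 LTR (4.43%) and 82 DNA clusters (2.71%), compared to 5.19%, and G45 at 108 (4.98%) and 81 (2.68%), compared to 6.35%. Any slice had a site at 293 LTR clusters (13.5%, 12.1 to 15) and 295 DNA clusters (9.75%, 8.74 to 10.9), compared to 21.4% of all. All 3 slices had a site at 61 LTR clusters (2.81%) and 35 DNA clusters (1.16%), compared to 2.14% of all, so here LTR lay above and DNA below. The shares in each slice and in any slice were below those of all clusters, and the members also differed from all clusters in place and depth.

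**Figure D4:**
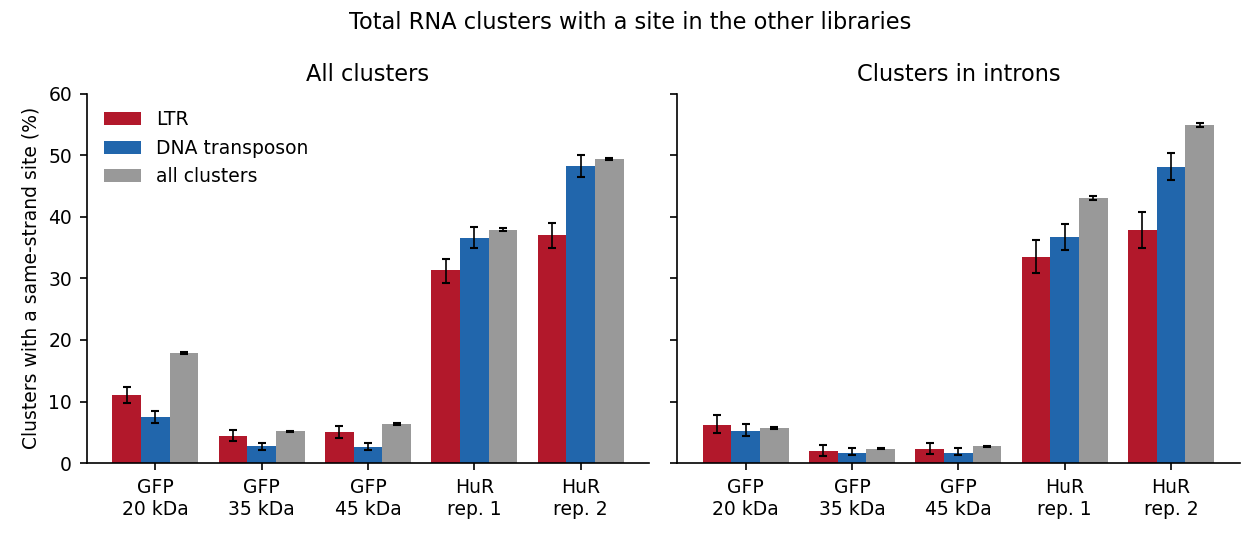
Share of Total clusters (%) with a same-strand site in each other library, for LTR, DNA transposon and all clusters, everywhere (left) and in introns (right), with 95% Wilson intervals. In HuR replicate 2, 37% of LTR and 48.2% of DNA clusters had a site, while G35 and G45 had a site at under 5% of either class.

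Within introns the members lay closer to all clusters in the slices and farther from them in HuR. Any slice had a site at 7.95% of intronic LTR clusters, 7.07% of intronic DNA clusters and 8.30% of all intronic clusters. G20 had a site at 6.23% of intronic LTR clusters (4.95 to 7.81), 5.29% of intronic DNA clusters (4.41 to 6.34) and 5.70% of all intronic clusters. The HuR shares of LTR, DNA and all clusters in introns were 33.5%, 36.7% and 43.0% in replicate 1 and 37.9%, 48.1% and 54.9% in replicate 2. Deeper clusters had sites more often. In HuR replicate 2 the share went with Total reads from 33.8% (5 to 9 reads) over 41.7% (10 to 24) to 45.2% (25 or more) for LTR, and from 44.2% over 54.7% to 61.0% (54.2 to 67.4) for DNA, compared to 47.2%, 51.1% and 53.9% of all clusters. At 25 or more reads the DNA share was thus above that of all clusters, as in HuR replicate 1, with 60.5% (53.7 to 66.9) compared to 44.6%. In G20 it went from 8.24% over 12.5% to 28.0% for LTR and from 4.91% over 9.44% to 23.9% for DNA. Over all clusters the G20 shares were higher, at 10.9%, 20.5% and 37.6%. The libraries differed in depth, and thinned to the 6187300 reads of G35 the expected shares were 24.4% and 27.0% of LTR clusters in HuR replicates 1 and 2, and 28.8% and 36.8% of DNA clusters. For the slices they were 5.04%, 4.43% and 4.82% of LTR clusters in G20, G35 and G45, and 2.72%, 2.71% and 2.58% of DNA clusters. Over all clusters the thinned shares were 30.7% and 38.4% in HuR replicates 1 and 2, and 8.61%, 5.19% and 6.11% in the slices. Thinning set the read totals equal but not how the reads were spread over sites.

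By reads the picture depended on a few sites. Sites that overlapped LTR clusters held 1579 RPM in G20, 2846 in G35, 4494 in G45, 3814 in HuR replicate 1 and 1020 in HuR replicate 2. Sites that overlapped DNA clusters held 175, 1996, 1985, 2047 and 1054 RPM. The HuR means were 2417 ± 1976 RPM (SD, n = 2) for LTR and 1550 ± 702 (SD, n = 2) for DNA, and the range of the replicates overlapped that of the slices in both classes. LTR sites held more than DNA sites in HuR replicate 1, whereas in replicate 2 the values were close, at 1020 and 1054. A single site, in the PID1 intron, whose cluster also matched GL000220.1, held 79.3% of the LTR reads of G20. The 10 deepest sites held between 55.6% (HuR replicate 2) and 94.0% (G20) of the LTR reads, and between 28.5% (HuR replicate 2) and 95.6% (G45) of the DNA reads. Without these 10 sites, LTR clusters had 94.5, 889 and 950 RPM in G20, G35 and G45 and 429 and 453 in HuR replicates 1 and 2. DNA clusters then had 20.8, 133 and 86.7 RPM in the slices and 286 and 754 in HuR. For DNA clusters each HuR value was then above each slice value, while for LTR clusters the G35 and G45 values were above, and the G20 value below, both HuR values.

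The place of the sites went with these reads. Clusters outside genes or on the opposite strand had 17.5% of the LTR reads of G20, where PID1 counts as inside a gene, and 79.0% of its DNA reads. They had 79.0% and 87.3% of the LTR reads of G35 and G45, and 83.4% and 66.4% of those of HuR replicates 1 and 2. For DNA clusters these shares were 84.7% and 86.5% in G35 and G45 and 82.2% in HuR replicate 1, but 27.4% in HuR replicate 2, where sites on the strand of a gene held 24579 of 33844 reads. In HuR most sites were shallow wherever they lay. The median was 1 read on the strand of a gene and 2 elsewhere in HuR replicate 1, and 7 (LTR) or 8 (DNA) reads and 8 elsewhere in HuR replicate 2. In the slices the median was higher outside genes or on the opposite strand. For LTR sites it was 6, 34.5 and 45.5 reads there in G20, G35 and G45, compared to 2, 5 and 3 on the strand of a gene. For DNA sites it was 3, 19.5 and 15, compared to 2, 5 and 3.5. At least 5 reads in HuR replicate 2 were found at 551 LTR (25.4%) and 1076 DNA clusters (35.6%), and in HuR replicate 1 at 91 and 140. The share of all clusters at this depth was not computed, so whether these shares are low or high for the library was not tested. Conversions at the overlapping sites came to 97.0 (LTR) and 92.5 (DNA) events per 100 reads in HuR replicate 2, where the whole library had 87.3. In HuR replicate 1 they came to 88.9 and 74.8 with 48.6 in the library, and in G20 to 26.1 and 45.9 with 18.7 in the library. In G35 LTR sites had 94.6 and DNA sites 54.0 events per 100 reads, with 61.7 in the library.

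Of the 6 clusters with the highest HuR means in each class, LTR33A was the 1 that was also among the 10 deepest in Total. LTR1D on chromosome 21 had 18 reads in Total, 14861 in HuR replicate 1 and 78 in HuR replicate 2, with 55, 335 and 326 in G20, G35 and G45. The CAST cluster, in an intron of the gene for calpastatin, an inhibitor of calpain, had 48 reads in Total, 4838 in HuR replicate 1, 66 in HuR replicate 2 and 80, 127 and 325 in the slices. Another LTR cluster, in ERV3-16A3_I-int on chromosome 11, had 3268 reads in HuR replicate 1 and 8 in HuR replicate 2. These were high in HuR replicate 1 alone, and their means in RPM had SDs above the means, at 781 ± 1101, 255 ± 358 and 172 ± 242 (SD, n = 2). With 15 bases, LTR1D and the chromosome 11 cluster were too short for the search of contigs and copies. LTR89, chr5:167103005-167103022, was high in all 5 libraries, with 1532, 2232 and 4866 reads in G20, G35 and G45 and 2921 and 4382 in HuR replicates 1 and 2, and 97.1 to 99.2 events per 100 reads. LTR33A had 2746, 1903 and 9816 reads in the slices and 378 and 5962 in HuR. The PID1 cluster had 48407 reads in G20, 1196 in G35, 1963 in G45, 79 in HuR replicate 1 and 853 in HuR replicate 2.

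Among DNA clusters MER102b on chromosome 1 had the highest means in both HuR and the slices. It had 29 reads in Total, 2255, 4654 and 6109 in G20, G35 and G45, and 7019 and 3113 in HuR replicates 1 and 2. Its conversions differed between libraries, at 48.4 events per 100 reads in HuR replicate 1 and 1.44 to 3.95 in the other 4. MamRep137 had 11 reads in Total, 916, 2108 and 3225 in the slices and 4764 and 1711 in HuR, and 99.8 to 100 events per 100 reads in each library. Charlie25, chr7:51941378-51941396, had 9 reads in Total, 927, 1101 and 2052 in the slices and 985 and 1284 in HuR. The LINGO1 intron cluster (MER102a) had 664, 1149 and 1241 reads in the slices and 83 and 554 in HuR, and so was lower in HuR replicate 1 than in each slice. Charlie2a, chr4:183585027-183585044, had 1916 reads in G35, 389 in G20 and 280 in G45, and 70 and 378 in HuR. Of the 6 highest HuR means of class DNA, the SD (n = 2) was above the mean for MER102b (417 ± 453 RPM), MamRep137 (277 ± 316) and Tigger4b (77.4 ± 82.3). It was also above the mean for MER102c on chromosome 18 (69.8 ± 96.2) and a PSMD1 intron cluster (44.2 ± 60.3), but not for Charlie25 (71.7 ± 44.8). The MER102c cluster on chromosome 18 had 7 reads in Total and 1313 in HuR replicate 1. Besides MER45C, it is the other DNA cluster that matched GL000220.1, with 1 T read as C. All 6 clusters with the highest HuR means and all 6 with the highest slice means had reads in all 5 libraries in each class, and in both classes the HuR ones were 15 to 19 bases long.

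**Figure D5:**
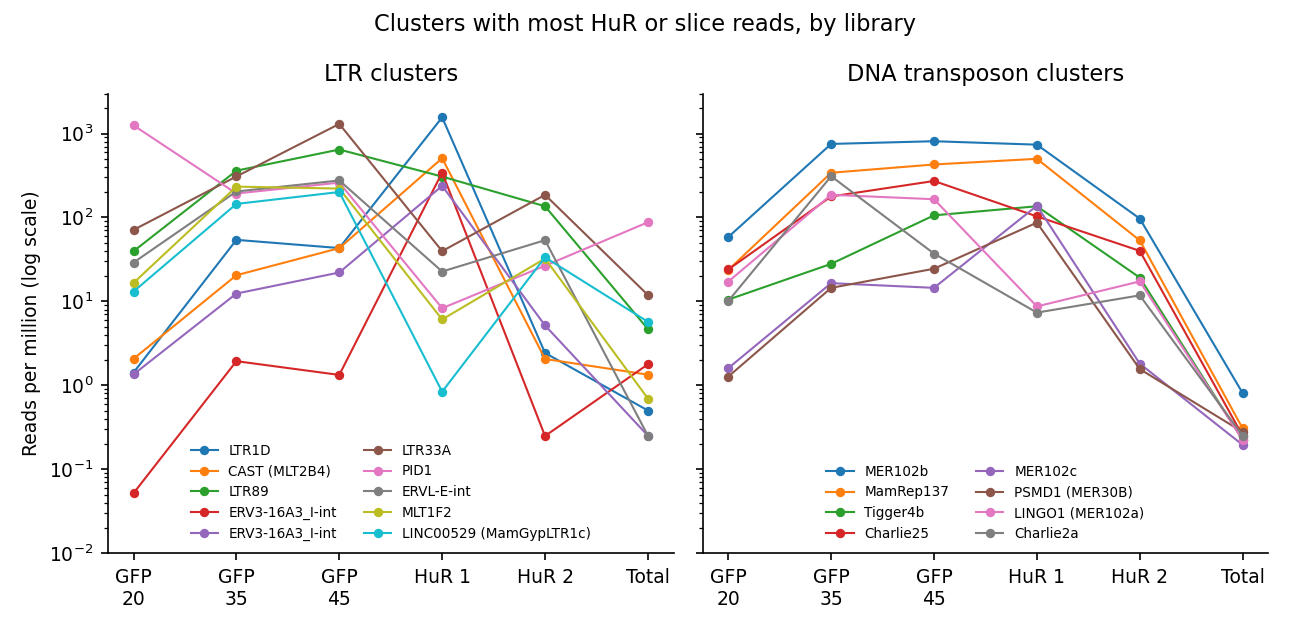
RPM (log scale) of the clusters with the highest HuR or slice means, in each library, with Total at the right end and 1 line for each LTR (left) or DNA (right) cluster named by its element or host gene. PID1 is highest in G20 (1253 RPM), LTR1D in HuR replicate 1 (1560 RPM) and LTR33A in G45 (1302 RPM), while each DNA cluster drawn lies at or below 0.807 RPM in Total.

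HuR sites with no counterpart in the slices were mostly inside genes, as they were over all clusters. At least 5 reads in each HuR replicate and no site in any slice were found at 25 LTR clusters (1.15%) and 70 DNA clusters (2.31%), compared to 3.17% of all clusters, by a rule chosen after values were seen. Of these, 13 LTR and 51 DNA clusters were intronic and 6 and 13 lay in 3′UTRs, and 3 of each class lay outside genes or on the opposite strand. Over all 6354 such clusters, 3404 were intronic, 2171 lay in 3′UTRs and 218 lay outside genes or on the opposite strand. The windows of the LTR and DNA clusters held 36.2% and 36.4% T, compared to 39.2% over all such clusters. The EXOSC6 3′UTR cluster, in the transcript of an RNA exosome subunit, had the highest LTR mean, with 11 reads in HuR replicate 1 and 379 in HuR replicate 2, which is 6.48 ± 7.53 RPM (SD, n = 2). The PUM3 intron cluster had 7 and 169 reads. Among DNA clusters, the ETNK1 intron cluster, in an ethanolamine kinase gene, had 22 and 156 reads, which is 3.58 ± 1.80 RPM (SD, n = 2), with 5 reads in Total. The HELLS 3′UTR cluster, in the transcript of a chromatin remodeller, had 14 and 146 reads with 61 in Total, and an FTX intron cluster, in MER2 sequence, had 12 and 106 with 34 in Total. In RPM each of these 5 clusters was higher in HuR replicate 2 than in replicate 1.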

How the data were processed

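The deposited files hold, for each library, a table of groups (sites with any read) and a table of clusters, and their values are raw counts of reads, conversion locations and conversion events. Per the study's methods, 50 bp reads were trimmed, mapped to hg19 with Bowtie (version not given in the sources used here) and reduced by PARalyzer to unique reads with at most 2 T-to-C mismatches. Removal of duplicates is not stated. The paper asks for 2 conversion locations per cluster, while the table also holds clusters with 1, which were kept.

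Cluster sequences were compared with GRCh37 and all 5195 matched. Midpoints were placed with GENCODE release 44 on GRCh37, in the order coding, 3′UTR, 5′UTR, noncoding exon, intron. A site overlapped at 1 shared bp on the same strand. RPM scale the reads of all groups of a library to 1000000. Sequences of 16 or more bases were searched on unplaced contigs. No fit across features was made, because Total and each slice are single libraries. Alternatives changed placement, depth, strand, overlap and the deepest clusters, and 1 was added after seeing the data. The overlap, placement and search steps were tested on simulated data.

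Named were, per class, the 10 clusters with most Total reads, the 6 with the highest HuR and slice means, the 8 hosts with most clusters and members of 4 gene lists. The HuR clusters without slice sites were chosen after their values were seen, by the 4 highest HuR means. Members and lists were chosen with earlier results of these data known. Python 3.11.15, numpy 2.4.6, pandas 2.3.3, pysam 0.24.0, matplotlib 3.10.9 and samtools 1.23.1 were used.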

Additional observations from a re-analysis of the deposited data

How the results depend on the processing

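Of 56 alternative values for 14 summaries, 28 stayed within the interval or the SD of the reported value and 28 did not. The 28 that stayed include each value with a HuR replicate left out, which says nothing about stability. With 2 replicates each always lies within the SD of their mean. Clusters of 10 or more reads had intron shares of 41.8% (LTR) and 57.2% (DNA). The T share of LTR clusters was 28.6% in whole clusters and 26.3% weighted by reads. Events per 100 reads, for LTR and DNA, were 35.4 and 30.6 without the 10 deepest clusters, 25.6 and 39.9 with 2 or more conversion locations and 25 and 28 as medians, and 38.4 for LTR without the clusters on GL000220.1, an alternative chosen after seeing the data. Thinned to the smallest library, HuR means of the overlap share were 25.7% and 32.8% and any-slice shares 8.56% and 5.53%. With sites of 5 or more reads only, they were 14.8% and 20.1% in HuR and 4.70% and 2.71% in any slice. The shares of all clusters with such sites were not computed. HuR means ranged from 31.3% to 37% (LTR) and from 36.6% to 48.2% (DNA) when either replicate was left out, and the RPM from 1020 to 3814 and from 1054 to 2047. Without the 10 clusters with most overlapping reads, HuR means were 441 and 532 RPM and slice means 645 and 80.0, against 2417, 1550, 2973 and 1385 with them. Slice means were 2542 and 1270 RPM with prorated reads, 5317 and 1915 with totals less their 10 deepest sites, and 2318 for LTR without the clusters on GL000220.1. In events per 100 reads and in HuR RPM, leaving out deep clusters turned the order of LTR and DNA, as did leaving out HuR replicate 1 for RPM. Apart from fewer sites or reads by construction, the cause was not tested. No paired analysis was possible because only HuR has replicates. Depth limits G35 and G45 most, where 3 reads are 0.485 and 0.398 RPM.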
